A study of Mus musculus with 9 samples.

Results

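The genes described here are 6 matrix metalloproteinases (Mmp2, Mmp3, Mmp8, Mmp9, Mmp14 and Mmp19), 3 tissue inhibitors of metalloproteinases (Timp1, Timp2 and Timp3) and the related secreted protease Adamts1. They were taken by symbol from an mRNA table of mouse pancreas. The rule that selects them uses no measured value, but the genes it names were chosen with earlier results of these data known. They are 10 of the 17132 genes in the table, and all 10 had enough counts to be among the 12828 genes tested.

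The pancreas came from C57BL/6 mice of 22 to 25 g, with 3 libraries per group that the labels number separately. The design divides mice into the groups, and no label ties a library to its mouse, so p-values measure the spread between these libraries. Every mouse received 7 hourly intraperitoneal injections, and tissue was taken 24 h after the first. The Control mice (libraries 43, 44 and 45) were injected with saline and then treated with saline. The Model mice (56, 57 and 59) were injected with caerulein, an analogue of cholecystokinin that overstimulates the enzyme-secreting acinar cells, with bacterial lipopolysaccharide added to the last injection, and were then treated with saline. The QYD mice (65, 66 and 68) received the same caerulein and lipopolysaccharide together with a Chinese herbal medicine, Qingyi Decoction, first at 0 h and again at 8 h. No group received the decoction without the injury. The model is an acute one, and whole pancreas was used, so the RNA of all its cell types is mixed. Fewer cells of a type and less RNA per cell cannot be told apart in such libraries.

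Each library held 19112923 to 20212744 estimated counts. In the Control libraries the 50 most abundant genes took 90.8 to 91.4% of all counts, against 64.8 to 72.0% in the 6 injured libraries. A list of 13 acinar markers, the defining genes of pancreas, took 22.6 to 39.1% of the counts of every library, and all 13 were lower in Model than in Control relative to the typical gene, 11 of them on library totals too. Because so much of each Control library belongs to a few enzymes, counts in CPM (counts relative to library size) are given after scaling by TMM (trimmed mean of M-values), which sets the typical gene to about the same level in every library. On this scale the median of all tested genes differed by 0.04 on the log2 scale between Model and Control. On library totals alone the same median differed by 2.19. A gene described below as higher or lower is therefore higher or lower relative to the typical gene, and the value on library totals is given wherever its sign differs. By a chi-square per gene on counts, Controls 43 and 45 were the closest pair of Controls (16.3) and Control 44 was farther from both (43.6 and 48.8). The most abundant genes weigh most in this measure, so it does not describe the typical gene. In its neutrophil genes, though, it was the library labelled Control 45 that stood apart from Controls 43 and 44, with a summed level of 12 neutrophil markers of 37.2 CPM against 15.5 and 9.42 CPM. Results that involve Control 45 are given with and without it where this moved the size of a change by more than 1.5 times.

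Matrix metalloproteinases are zinc-dependent endopeptidases that cleave collagens, proteoglycans and other proteins outside the cell. They are made as inactive precursors with a propeptide that must be removed. Tissue inhibitors of metalloproteinases bind the active enzymes and block them, and they differ in their targets: Timp3 is held in the matrix and inhibits ADAM and ADAMTS proteases as well, while Timp2 also takes part with the membrane-bound Mmp14 in activating the precursor of Mmp2. In an inflamed pancreas these proteins are known to come from infiltrating neutrophils and macrophages as well as from stellate cells, the resident fibroblast-like cells. Their activity also depends on secretion and on removal of the propeptide, which mRNA does not measure.

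Sequence upstream of the start was matched in RefSeq (GRCm38.p6) for 7 of the 10 genes, leaving out Mmp2, Mmp9 and Mmp19. The 250 bases before the start are shown for 3 genes, chosen because their mRNA changed differently in the results that follow: Mmp3 and Timp1 were higher in injured pancreas and Timp2 was lower relative to the typical gene. Capitals mark exact matches, on either strand, to an AP-1 site, a TATA box or a GC box, whose letters are spelled out after the sequences. The Mmp3 window is chr9:7445572-7445821 on the plus strand, the Timp1 window is chrX:20869916-20870165 on the plus strand and the Timp2 window is chr11:118355412-118355661 on the minus strand.
Mmp3: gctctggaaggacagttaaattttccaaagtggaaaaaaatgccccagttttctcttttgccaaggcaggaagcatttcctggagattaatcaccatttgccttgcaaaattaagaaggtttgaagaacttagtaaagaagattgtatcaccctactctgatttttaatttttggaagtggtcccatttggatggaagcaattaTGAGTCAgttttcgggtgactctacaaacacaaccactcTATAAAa
Timp1: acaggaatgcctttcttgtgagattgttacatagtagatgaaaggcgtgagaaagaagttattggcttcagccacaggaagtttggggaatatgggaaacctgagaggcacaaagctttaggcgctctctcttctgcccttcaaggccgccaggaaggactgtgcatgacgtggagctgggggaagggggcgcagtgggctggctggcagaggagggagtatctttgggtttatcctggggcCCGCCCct
Timp2: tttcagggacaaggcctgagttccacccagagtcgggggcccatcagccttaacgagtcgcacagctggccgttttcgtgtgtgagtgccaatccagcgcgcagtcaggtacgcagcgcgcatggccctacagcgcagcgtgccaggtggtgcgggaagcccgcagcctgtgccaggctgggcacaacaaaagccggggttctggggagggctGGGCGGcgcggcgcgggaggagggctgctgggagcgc

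The Mmp3 window held the AP-1 letters TGAGTCA, beginning 46 bases upstream of the annotated start, and the TATA box letters TATAAA, beginning 7 bases upstream. Whether either match works as a site was not tested. The AP-1 letters occur in 4.46% of the 32851 windows of the same length in the table, and among the 7 genes they were found in Mmp3 alone. The letters TATAAA occur in 12.4% of windows and were also found in Adamts1. GC boxes, spelled GGGCGG and present in 32.7% of windows, were found in Timp1, Timp2, Timp3, Mmp14 and Adamts1. The Mmp8 window held none of these 3 motifs. Exact letters for a STAT site (TTCNNNGAA, in 7.02% of windows), an NF-kB site (in 1.41%), an ETS site (CCGGAAGT, 2.88%) and an E box (CACGTG, 6.02%) were in none of the 7 windows, which says only that those letters are not there. No match overlapped another. The windows also differed in CpG pairs. Mmp3 had 1 and Mmp8 had 4, Timp1 had 6, which is the median of all windows, and Mmp14, Adamts1, Timp3 and Timp2 had 10, 15, 18 and 21.

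Between Model and Control, 7 of the 10 genes rose and 2 fell relative to the typical gene by edgeR's quasi-likelihood test at a Benjamini-Hochberg adjusted p of 0.05 over all tested genes; on library totals all 10 rose, including the 2. Of all 12828 tested genes, 42.6% were called in this comparison, with 21.3% higher and 21.3% lower. On library totals 94% of all genes were called higher, so 10 of 10 on that scale is near the background. The 7 that rose were Mmp3, Mmp8, Mmp9, Mmp14, Mmp19, Timp1 and Adamts1. Timp2 and Timp3 fell on the TMM scale, while their values on library totals were higher by 0.78 and 1.38 on the log2 scale. Mmp2 did not pass the test. The median of the 10 log2 fold changes was 1.73, against 0.04 over all tested genes, and on library totals it was 3.88 against 2.19. Model and Control libraries did not overlap for the same 9 genes, against 27.4% of all genes whose Model libraries were all higher and 24.9% whose Model libraries were all lower. Without Control 45 the calls were again 7 higher and 2 lower, against 39.1% of all genes called.

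**Figure D1:**
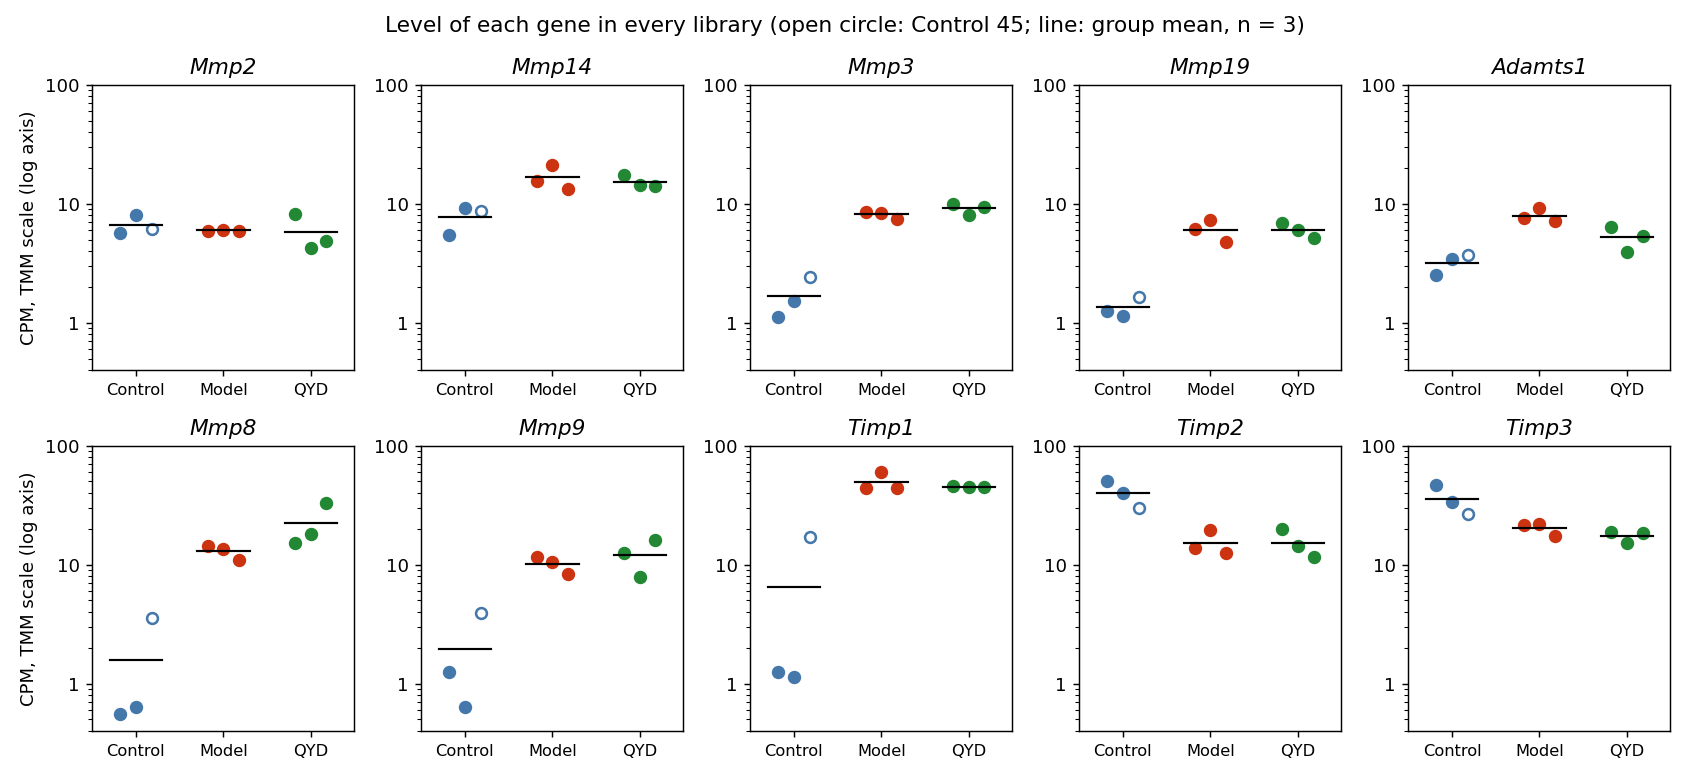
CPM on the TMM scale (log axis) of the 10 genes in each of the 9 libraries, 1 panel per gene, with points for single libraries, the group means marked and Control 45 drawn as an open circle. The 6 injured libraries lie above all Controls for Mmp3, Mmp8, Mmp9, Mmp14, Mmp19, Timp1 and Adamts1, and below them for Timp2 and Timp3, whose sign is opposite on library totals.

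Among the collagen- and gelatin-cleaving enzymes, Mmp8 and Mmp9 rose in Model pancreas and Mmp2 did not pass the test. Mmp8 (chr9:7558429-7568486) is the collagenase that neutrophils store in their granules. Its level was 0.559, 0.637 and 3.56 CPM in Controls 43, 44 and 45, from 4, 5 and 28 counts. In Model libraries 56, 57 and 59 it was 14.4, 13.5 and 10.9 CPM. Every Model library was above every Control, and Control 45 lay several times above the other Controls. The log2 fold change was 3.00 ± 0.51 (SE, adjusted p = 0.000858), an 8.01-fold difference of 3 against 3 libraries, and 4.42 ± 0.54 without Control 45 (adjusted p = 0.000217).

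Mmp9 (chr2:164940326-164955850), a gelatinase made by neutrophils and macrophages, read 1.26, 0.637 and 3.94 CPM in the Controls and 11.6, 10.6 and 8.28 CPM in the Model libraries. The groups did not overlap, and again the highest Control was 45. The change was 2.37 ± 0.45 on the log2 scale (SE, adjusted p = 0.00174), and 3.44 ± 0.46 without Control 45 (adjusted p = 0.000387). Mmp2 (chr8:92827290-92853421) is the other gelatinase and is made mainly by fibroblasts. It read 5.73, 8.02 and 6.10 CPM in the Controls and 5.92, 6.07 and 5.93 CPM in the Model libraries. All 3 Model values lay within the range of the Controls. The log2 difference was -0.15 ± 0.25 (SE, 95% interval -0.70 to 0.40, adjusted p = 0.66), and on library totals it was 2.00, close to the median of all genes on that scale.

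The stromelysin Mmp3 (chr9:7445822-7455975), which cleaves proteoglycans and removes the propeptide of other metalloproteinases, rose in Model with little spread between libraries. It read 1.12, 1.53 and 2.42 CPM in the Controls, from 8, 12 and 19 counts, and 8.56, 8.37 and 7.52 CPM in the Model libraries. The Model values were close together and all more than 3 times the highest Control. Its log2 fold change was 2.26 ± 0.23 (SE, adjusted p = 3.77e-05), a 4.78-fold difference.

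The membrane-anchored Mmp14 (chr14:54431598-54442456), which cleaves collagen at the cell surface, had a smaller change. Its level was 5.45, 9.17 and 8.64 CPM in the Controls and 15.7, 21.4 and 13.3 CPM in the Model libraries, which did not overlap. The log2 fold change was 1.11 ± 0.22 (SE, adjusted p = 0.0024), a 2.16-fold difference. Mmp19 (chr10:128790910-128800827), a secreted enzyme that cleaves basement membrane proteins, read 1.26, 1.15 and 1.65 CPM in the Controls and 6.15, 7.26 and 4.79 CPM in the Model libraries. The difference was 4.47-fold, or 2.16 ± 0.26 on the log2 scale (SE, adjusted p = 0.000104). Mmp19 is the only one of the 10 genes whose estimated counts were not whole numbers, and 789 of its 3533 exon bases lie in exons of Tmem198b on the opposite strand. No source used here states whether the counting used strand, so reads of this pair may be mixed and the Mmp19 values are uncertain; Tmem198b held 14.05 to 103.34 estimated counts per library.

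Adamts1 (chr16:85793827-85803113, minus strand) encodes a secreted protease that cleaves the proteoglycans aggrecan and versican. It read 2.52, 3.44 and 3.69 CPM in the Controls and 7.61, 9.17 and 7.14 CPM in the Model libraries. All Model libraries lay above all Controls. The log2 fold change was 1.30 ± 0.23 (SE, adjusted p = 0.00115), a 2.47-fold difference.

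The 3 inhibitors did not move together. Timp1 (chrX:20870166-20874737), an inhibitor that many cells make in response to inflammatory cytokines, read 1.26, 1.15 and 17.0 CPM in Controls 43, 44 and 45, from 9, 9 and 134 counts. Its level was 44.4, 60.4 and 44.3 CPM in the Model libraries, from 1551, 2030 and 1283 counts. Control 45 was well above the other Controls and still below every Model library. The log2 fold change was 2.92 ± 0.65 (SE, adjusted p = 0.00425), and 5.37 ± 0.25 without Control 45 (adjusted p = 1.92e-06). Control 45 thus set most of the spread of this gene. Timp1 lies in an intron of Syn1 on the opposite strand and shares no exon base with it; Syn1 held 0 to 12 counts per library.

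Timp2 (chr11:118301061-118355411, minus strand) was the most abundant of the 10 genes in the Controls per length of transcript. It read 50.6, 40.2 and 30.1 CPM in the Controls and 13.7, 19.7 and 12.6 CPM in the Model libraries. Every Model library was below every Control on this scale. The log2 fold change was -1.39 ± 0.25 (SE, adjusted p = 0.00117) on the TMM scale and 0.78 on library totals (adjusted p = 0.0188). Its raw counts were 362, 316 and 237 in the Controls and 480, 662 and 365 in the Model libraries, so they were higher in Model, though by less than those of the typical gene.

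Timp3 (chr10:86300412-86349505), the matrix-bound inhibitor, read 46.8, 33.4 and 26.6 CPM in the Controls and 21.6, 22.1 and 17.6 CPM in the Model libraries. The lowest Control stood only a little above the highest Model library. Its log2 fold change was -0.80 ± 0.19 (SE, adjusted p = 0.00672), a 0.575-fold level, against 1.38 on library totals. Timp3 shares 1733 of its 8144 exon bases with Syn3 on the opposite strand, so without knowing the use of strand these values are uncertain too; Syn3 held 9 to 71 counts per library, against 209 to 755 for Timp3.

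**Figure D2:**
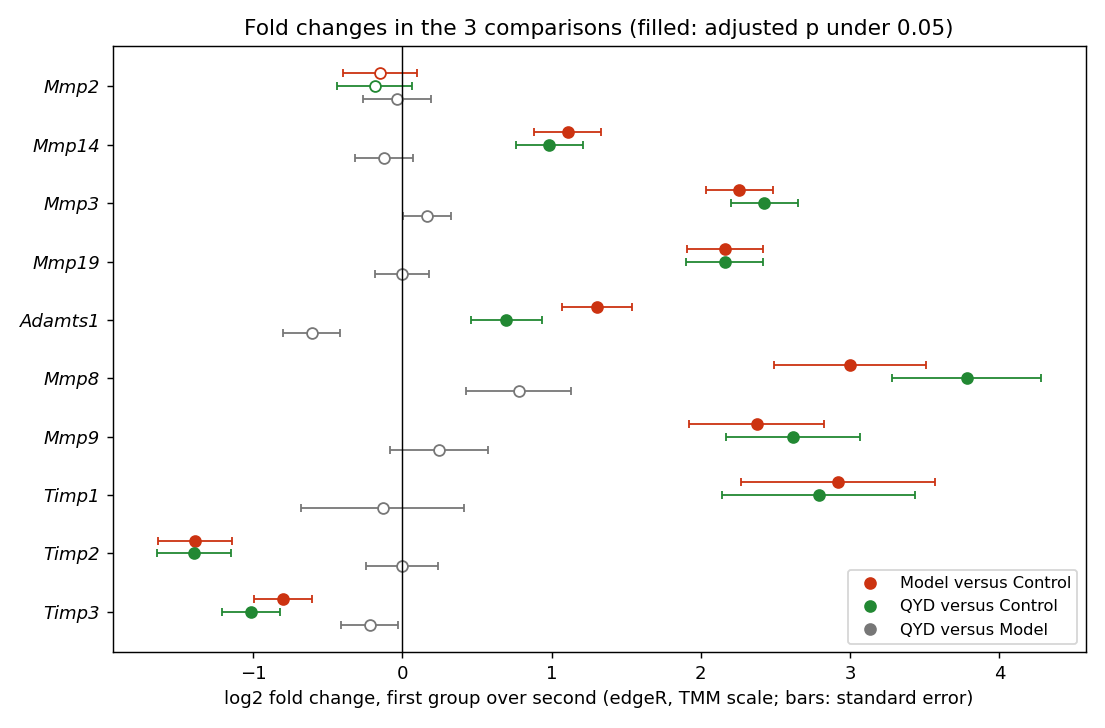
Log2 fold change of the 10 genes on the TMM scale in Model versus Control, QYD versus Control and QYD versus Model, with bars for the standard error and filled points for an adjusted p under 0.05. In both comparisons with Control, 7 genes lie above 0 and Timp2, Timp3 and Mmp2 below it, Mmp2 without passing the test (all 3 above 0 on library totals), while in QYD versus Model the values lie between -0.61 (Adamts1) and 0.78 (Mmp8).

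**Figure D3:**
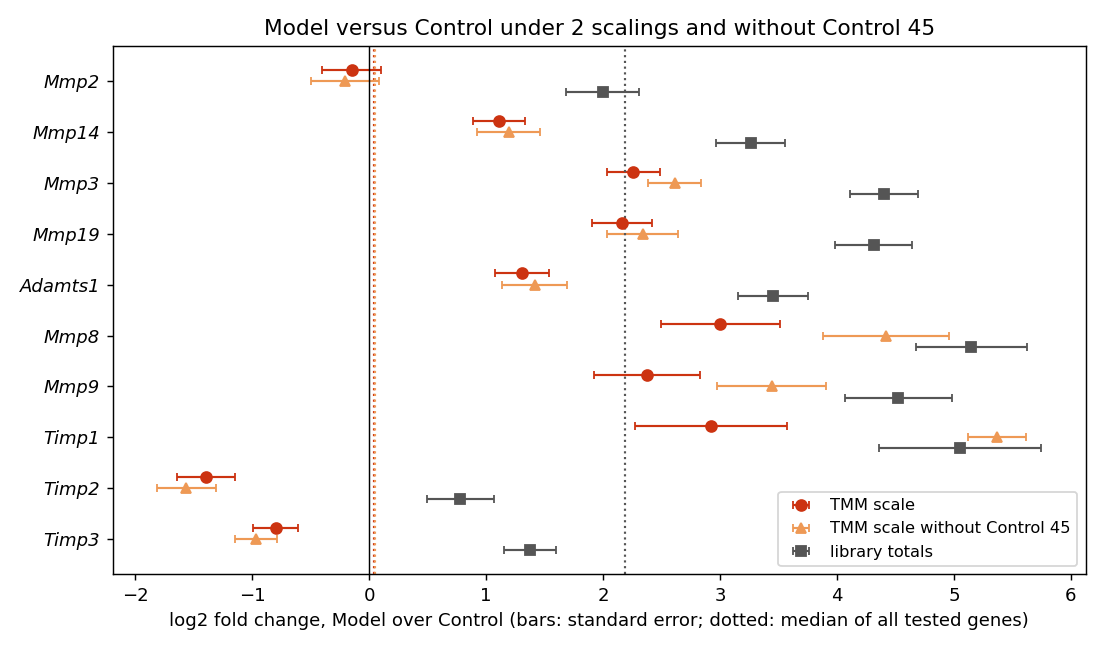
Log2 fold change of the 10 genes in Model versus Control on the TMM scale with and without Control 45 and on library totals, with bars for the standard error and dotted lines for the median of all tested genes. Mmp2, Timp2 and Timp3 change sign between the TMM scale and library totals, and leaving out Control 45 moves Timp1 from 2.92 to 5.37 and Mmp8 from 3.00 to 4.42.

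Levels of different genes can be compared only per length of transcript, for which the deposited FPKM were used, which divide fragments by transcript length and by the size of the whole library. In the Controls the order was led by Timp2 (4.37 ± 0.895 FPKM, SD, n = 3), Timp1 (3.35 ± 4.77) and Timp3 (2.95 ± 0.695), with all proteases below 1 FPKM on average. The place of Timp1 in that order rests on Control 45: its Control values ranged from 0.59 to 8.86 FPKM. Timp2 was above Timp3 in each of the 3 Controls, at 5.20, 4.48 and 3.42 FPKM against 3.69, 2.85 and 2.31. Mmp2 (0.86 ± 0.183) and Mmp14 (0.81 ± 0.243) were the most abundant proteases in the Controls, with means that differed by less than their SDs.

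In the Model libraries the order was a different one. Timp1 stood far above the rest at 111 ± 25.3 FPKM (SD, n = 3). Mmp8 (9.50 ± 2.12), Mmp3 (8.28 ± 1.30), Mmp14 (7.80 ± 2.36), Timp3 (7.65 ± 1.56) and Timp2 (7.49 ± 2.22) followed, with the means of neighbours in this order differing by less than their SDs. Mmp9 (5.71 ± 1.44), Mmp2 (3.43 ± 0.341), Mmp19 (3.16 ± 0.857) and Adamts1 (2.85 ± 0.547) were lowest. In QYD libraries Timp1 was again first, at 94.0 ± 13.8 FPKM, followed by Mmp8 at 14.5 ± 4.37, and Adamts1 was last at 1.74 ± 0.596.

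Timp1 made up 6.32 and 7.45% of the summed FPKM of the 3 inhibitors in Controls 43 and 44 and 60.7% in Control 45. Its share was 87.1, 88.3 and 88.6% in the Model libraries and 86.0, 89.0 and 89.0% in the QYD libraries. The summed FPKM of the 3 inhibitors was 2.91 to 5.13 times that of the 6 metalloproteinases in the Controls, 2.89 to 3.67 times in Model and 2.07 to 2.99 times in QYD. These ranges for the 3 inhibitors and 6 metalloproteinases overlap between Control and Model. Other metalloproteinases are not in the sum, among them Mmp7, which rose in Model as described below. The overlap therefore holds for this choice of genes alone. The inhibitor behind the sum was Timp2 or Timp3 in Controls 43 and 44 and Timp1 in every injured library.

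The ratio of 2 genes inside 1 library does not depend on how libraries are scaled. Counts with 0.5 added were therefore compared for 6 pairs of an inhibitor and a protease. With 3 libraries against 3 the exact two-sided permutation test cannot give a p below 0.1. The Timp2 to Mmp14 ratio was 9.18, 4.37 and 3.47 in the Controls and 0.878, 0.921 and 0.948 in the Model libraries. Timp2 counts were thus above Mmp14 counts in every Control and below them in every Model library. The mean log2 ratio was 2.37 ± 0.73 in Control and -0.13 ± 0.06 in Model (SD, n = 3, exact permutation p = 0.1, adjusted over 6 pairs 0.2).

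The other inhibitor ratios that did not overlap went the same way. Timp3 to Adamts1 was 18.1, 9.55 and 7.10 in the Controls and 2.83, 2.41 and 2.46 in the Model libraries, a log2 difference of -2.07 (exact permutation p = 0.1, adjusted 0.2). Timp2 to Mmp2 was 8.73, 4.98 and 4.90 in the Controls and 2.32, 3.24 and 2.12 in Model, a log2 difference of -1.25 (exact permutation p = 0.1, adjusted 0.2). For these 3 pairs the inhibitor's share against its protease was lower in Model in every library, at the smallest p the design allows.

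Ratios with Timp1 overlapped between the groups, in each case through Control 45 alone. Timp1 to Mmp9 was 1.00, 1.73 and 4.27 in the Controls and 3.82, 5.68 and 5.34 in Model (exact permutation p = 0.2). Timp1 to Mmp8 was 2.11, 1.73 and 4.72 in the Controls and 3.09, 4.48 and 4.04 in Model (exact permutation p = 0.4). Timp1 to Mmp3 was 1.12, 0.76 and 6.90 in the Controls and 5.18, 7.21 and 5.87 in Model (exact permutation p = 0.3). In Control 45 each of these ratios was within or near the range of the Model libraries.

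**Figure D4:**
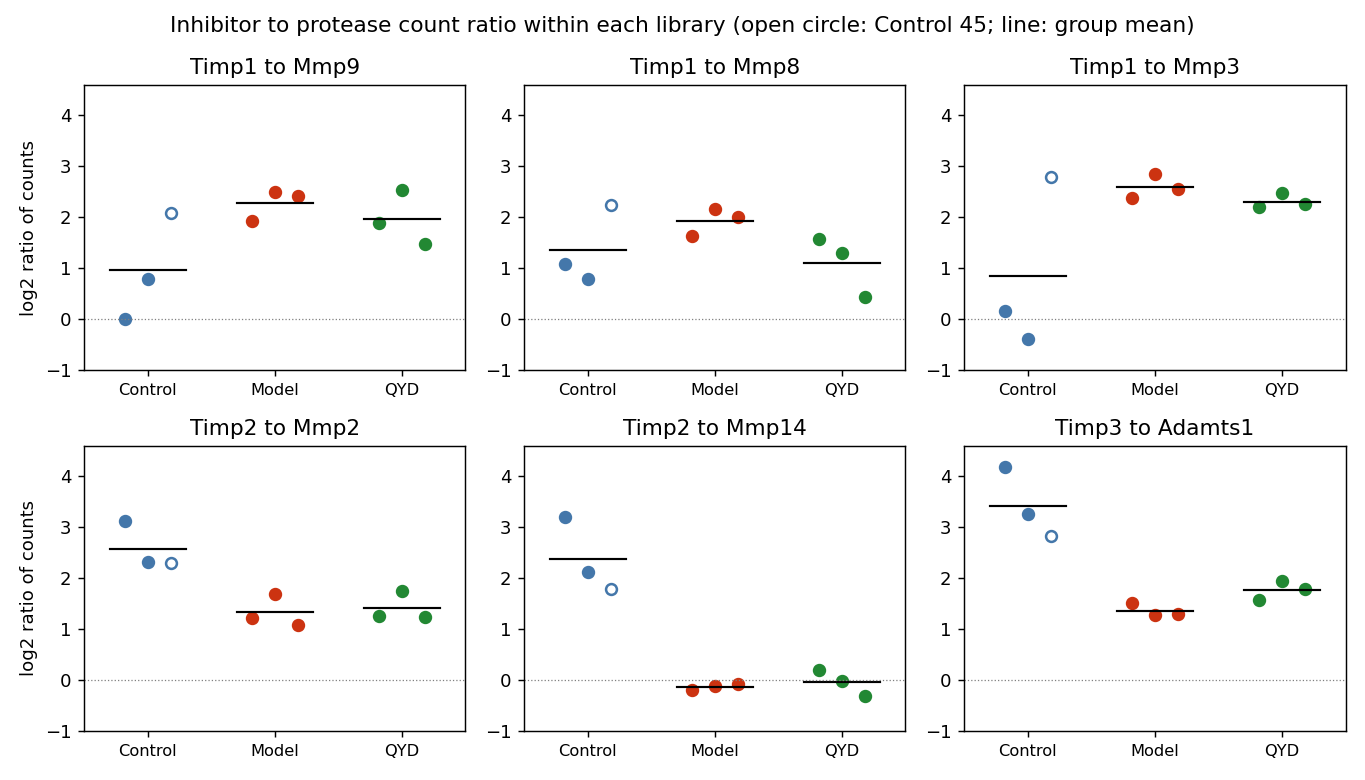
Within-library log2 count ratios of 6 inhibitor and protease pairs in the 9 libraries, with points for single libraries, lines for group means and Control 45 as an open circle. Timp2 to Mmp14, Timp2 to Mmp2 and Timp3 to Adamts1 are lower in all injured libraries than in all Controls. The Timp1 ratios of Control 45 lie within or near the range of the Model libraries. For Timp1 to Mmp8, Control 45 (2.24) is the highest of the 9 libraries and QYD 68 (0.43) the lowest.

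Marker genes of cell types moved with some of these results. Of 12 neutrophil markers, 10 were tested and 8 rose in Model, against 21.3% of all genes. Their summed level was 15.5, 9.42 and 37.2 CPM in the Controls, 176, 136 and 123 CPM in Model and 175, 136 and 253 CPM in QYD, in the same order of libraries. Among the defining neutrophil genes Elane and Mpo were at or near 0 throughout. Mmp8 counts per 1000 neutrophil-marker counts were 36.0, 67.6 and 95.6 in the Controls and 81.8, 98.8 and 88.8 in Model, which overlap. Mmp9 counts per 1000 neutrophil-marker counts were 81.1, 67.6 and 106 in the Controls and 66.1, 77.9 and 67.2 in Model, which overlap as well. For Timp1 the same quantity was 81.1, 122 and 457 in the Controls and 253, 443 and 359 in Model. The part of neutrophils in the changes of Mmp8, Mmp9 and Timp1 was not tested; these pairings of a gene with a marker list were chosen after values were seen.

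**Figure D5:**
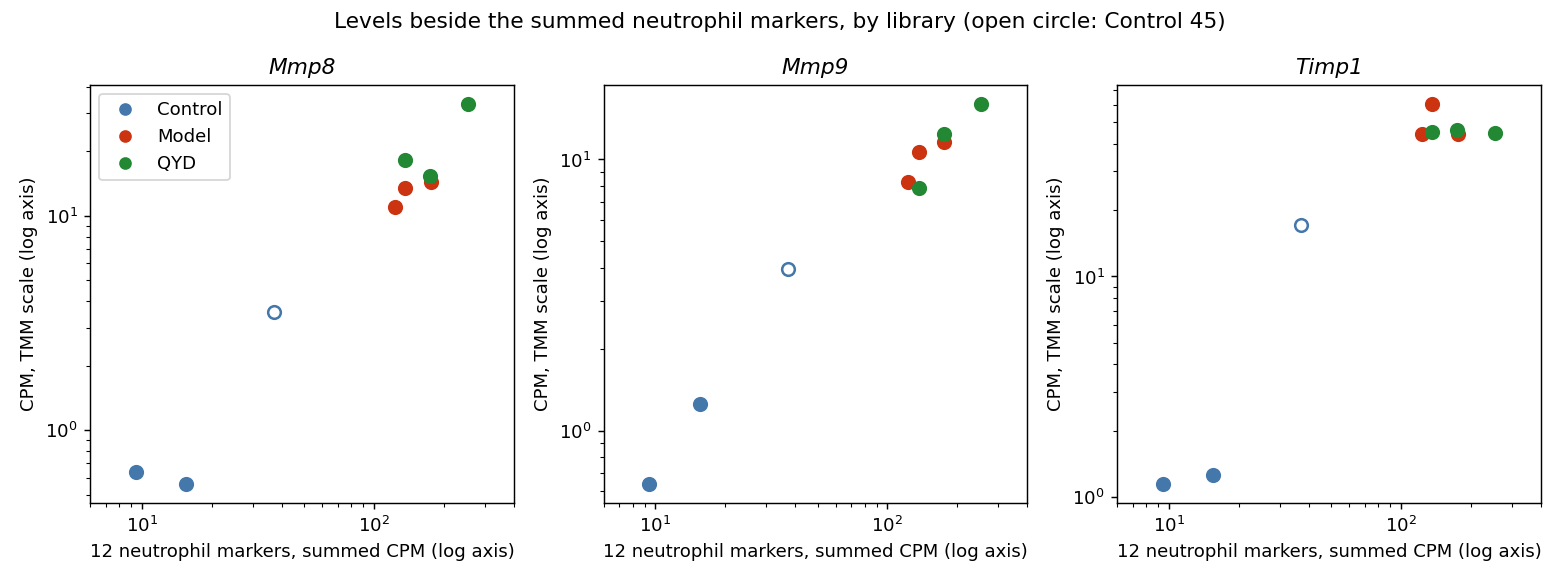
CPM of Mmp8, Mmp9 and Timp1 against the summed CPM of 12 neutrophil markers in the 9 libraries (both axes log), with 1 point per library and Control 45 as an open circle. Control 45 lies between the other Controls and the injured libraries on both axes, and QYD 68 has the highest neutrophil sum, 253 CPM.

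Lists for resident cells moved in different ways. The summed level of 10 fibroblast and stellate-cell markers was 228 to 349 CPM in the Controls and 181 to 293 CPM in Model, with 3 markers higher and 3 lower on the TMM scale (all 10 higher on library totals), against 21.3% of all genes each way; Dcn alone gave 43 to 75.8% of this sum. Per 1000 counts of these markers, Timp2 was 145, 167 and 132 in the Controls, 65.1, 67.3 and 69.6 in Model and 67.9, 56.8 and 59.8 in QYD, so it was lower relative to them as well. Mmp3 per 1000 fibroblast-marker counts was 3.21, 6.36 and 10.6 in the Controls and 40.6, 28.6 and 41.5 in Model. Mmp14 was 15.6, 38.2 and 37.9 in the Controls and 74.2, 73.1 and 73.4 in Model. The gelatinase Mmp2 was 16.4, 33.4 and 26.7 in the Controls and 28.1, 20.7 and 32.8 in Model, with overlap. Timp1 per 1000 fibroblast-marker counts was 3.61, 4.77 and 74.6 in the Controls and 210, 206 and 244 in Model. Timp3 was 134, 139 and 116 in the Controls and 102, 75.6 and 97.0 in Model. Of these genes, Mmp2 alone overlapped between Control and Model when set against the fibroblast list.

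Macrophage markers summed to 118 to 203 CPM in the Controls and 214 to 340 CPM in Model, but Cd14 alone gave 4.21 to 46.7% of this sum. Of 9 tested markers, 4 were higher and 1 lower on the TMM scale, against 21.3% of all genes each way. On library totals all 9 were higher, near the 94% of all genes. Their median log2 change was -0.13 on the TMM scale and 2.04 on library totals. Mmp19 per 1000 macrophage-marker counts was 6.20, 9.71 and 9.37 in the Controls and 24.5, 21.3 and 22.4 in Model, which do not overlap. Endothelial markers summed to 55.4 to 79.8 CPM in the Controls and 62.8 to 86.0 CPM in Model. Against them, Adamts1 was 45.5, 43.1 and 58.9 per 1000 counts in the Controls and 121, 107 and 93.8 in Model, and Timp3 was 846, 418 and 425 in the Controls and 344, 257 and 231 in Model. The summed level of 6 smooth muscle and pericyte markers, cells that wrap vessels and also make matrix, was 28.0, 42.5 and 26.6 CPM in the Controls and 22.9, 18.3 and 20.5 CPM in Model. It was thus lower in every Model library on the TMM scale, as Timp2 and Timp3 were, but Rgs5 alone gave 39.2 to 70.2% of this sum. Of the 5 tested markers, 0 were higher and 2 lower on the TMM scale, against 21.3% of all genes each way. On library totals 4 were higher and 0 lower, against 94% of all genes higher. Duct markers, of the epithelium that lines the pancreatic ducts, summed to 65.1 to 82.9 CPM in the Controls and 184 to 304 CPM in Model, without overlap. Krt19 alone gave 37.6 to 60.2% of this sum. Of the 6 duct markers, 3 were higher and 1 lower on the TMM scale, against 21.3% of all genes each way. On library totals 5 were higher and 0 lower, against 94% of all genes higher. The mesothelial list summed to 40.5 to 47.9 CPM in the Controls and 98.5 to 187 CPM in Model; it shares Krt19 with the duct list, and Krt19 gave 60.4 to 96.9% of its counts. These values show the genes relative to or beside each list and do not assign them to a cell type, and the part of cell numbers in the changes was not tested.

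The comparison of QYD with Model asks whether the decoction altered the response to the injury. None of the 10 genes passed the test, and none of all 12828 tested genes did (0% called by edgeR, where no adjusted p was under 0.826). Without adjustment, 750 genes (5.85%) had a p under 0.05, and 2 of these, Adamts1 and Mmp8, belong to the 10. DESeq2 likewise called no gene, with 714 at an unadjusted p under 0.05. By limma-voom, limma on log2(FPKM + 1) and limma on log2(FPKM + 0.1), 1 gene was called each time, which is none of the 10. The median log2 difference of the 10 genes was -0.02, against 0.01 over all genes.

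Adamts1 and Mmp8 had the smallest p. Adamts1 read 6.40, 3.92 and 5.36 CPM in the QYD libraries against 7.61, 9.17 and 7.14 CPM in Model. All 3 QYD libraries were below all 3 Model libraries, as for 8.18% of all genes. The log2 difference was -0.61 ± 0.19 (SE, 95% interval -1.03 to -0.18), with an unadjusted p of 0.00902 and an adjusted p of 0.826 by edgeR, so it did not pass. Mmp8 read 15.3, 18.3 and 33.2 CPM in QYD against 14.4, 13.5 and 10.9 CPM in Model. All 3 QYD libraries were higher, as for 8.56% of all genes, and QYD 68, the library with the highest neutrophil-marker sum, was the highest. The log2 difference was 0.78 ± 0.35 (SE, 95% interval 0.01 to 1.55, unadjusted p = 0.0475 and adjusted p = 0.826 by edgeR), and it was 0.37 without QYD 68. Per 1000 neutrophil-marker counts, Mmp8 was 87.5, 134 and 131 in QYD, which overlaps the Model values.

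The other 8 genes overlapped between QYD and Model, and their intervals show what size of difference these libraries leave possible. Mmp3 read 9.97, 8.11 and 9.39 CPM in QYD, a log2 difference of 0.17 (95% interval -0.19 to 0.52). Mmp19 read 6.96, 6.00 and 5.21 CPM, with a 95% interval of -0.40 to 0.40. Mmp14 read 17.5, 14.5 and 14.3 CPM, a log2 difference of -0.12 (95% interval -0.56 to 0.31). For these 3 proteases a difference of 1.5 times in either direction lies outside the interval.

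Mmp9 in QYD was 12.4, 7.84 and 16.0 CPM, a log2 difference of 0.25 (95% interval -0.47 to 0.96), and Mmp2 was 8.27, 4.25 and 4.88 CPM, a difference of -0.04 (95% interval -0.53 to 0.46). Both gelatinases varied more among the QYD libraries than among the Model libraries. Timp1 was 45.9, 45.3 and 44.8 CPM in QYD, with an SD of 0.512 CPM, and its log2 difference was -0.13 (95% interval -1.33 to 1.07). That interval is wide because the spread is shared over all 9 libraries and Control 45 is among them; the SE was 0.55 with it and 0.14 without it. Timp2 was 19.9, 14.4 and 11.5 CPM (95% interval of the log2 difference -0.54 to 0.53) and Timp3 was 18.9, 15.1 and 18.6 CPM (95% interval -0.63 to 0.20). A p that misses the threshold does not show that the 2 groups have the same level of any of these genes.

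Of the 6 count ratios, 2 did not overlap between QYD and Model. Timp3 to Adamts1 was 2.95, 3.85 and 3.46 in QYD against 2.83, 2.41 and 2.46 in Model, a log2 difference of 0.41 (exact permutation p = 0.1, adjusted 0.3). Timp1 to Mmp8 was 3.00, 2.48 and 1.35 in QYD against 3.09, 4.48 and 4.04 in Model, a log2 difference of -0.83 (exact permutation p = 0.1, adjusted 0.3). The first of these has the lower Adamts1 in it and the second the higher Mmp8, so they are not separate observations. The log2 difference for Timp2 to Mmp14 was 0.09 (exact permutation p = 0.7).

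QYD was also set against Control. This comparison shares its 3 Control libraries with the comparison of Model with Control, so similar values in both are not independent. As many were called, 7 higher and 2 lower on the TMM scale, against 40.7% of all genes called, with 20.5% higher and 20.3% lower. On library totals all 10 were higher, near the 93.8% of all genes. Without Control 45 the calls on the TMM scale were 7 and 2 again, against 37.7% of all genes. QYD libraries were all above the Controls for 7 genes and all below for 2, against 27.8 and 24.7% of all genes. The log2 fold change of Mmp8 was 3.78 ± 0.50 in QYD against 3.00 in Model, and without Control 45 it was 5.20 against 4.42. Timp1 was 2.79 ± 0.65 against 2.92, and 5.24 without Control 45, and Mmp9 was 2.62 ± 0.45 against 2.37, and 3.69 without Control 45. Mmp3 was 2.43 ± 0.23 against 2.26 and Mmp19 was 2.16 ± 0.26 against 2.16. Mmp14 was 0.99 ± 0.22 against 1.11. Timp2 was -1.40 ± 0.25 against -1.39, and Timp3 -1.02 ± 0.19 against -0.80, while on library totals Timp2 was 0.68 and Timp3 1.03 in QYD. Adamts1, at 0.70 ± 0.24 in QYD against 1.30 in Model, was the weakest call, with an adjusted p of 0.0354 by edgeR that rose above 0.05 when any of Controls 43 and 44 or QYD 65 and 68 was left out.

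Other genes of the same system were read from lists by family and role. Of 18 other metalloproteinase and inhibitor genes, 15 were in the table and 7 were tested; 2 rose and 2 fell in Model relative to the typical gene, near the 21.3% of all genes each way, with a median log2 fold change of -0.24. On library totals 5 were higher and 0 lower. Mmp7, an epithelial metalloproteinase also called matrilysin, rose from 6.23 ± 6.84 CPM (SD, n = 3) in Control to 47.2 ± 12.5 in Model, a log2 fold change of 2.91 ± 0.52 (adjusted p = 0.00117). Its Control counts were 20, 14 and 111, so Control 45 was high here too, and without it the change was 4.38. Of the 6 epithelial markers of the duct list, 3 were higher and 1 lower in Model on the TMM scale. Krt19 had 192 to 282 counts in the Controls and 2725 to 6280 in Model, and Epcam had 131 to 227 and 2505 to 3479. The part of these epithelial markers in the change of Mmp7 was not tested. Mmp25, a membrane-anchored enzyme of neutrophils, rose by 2.79 ± 0.54 on the log2 scale at low level (adjusted p = 0.00194). Mmp28 (-1.77 ± 0.45) and Mmp24 (-0.69 ± 0.23) were lower on the TMM scale, and higher by 0.36 and 1.46 on library totals; Mmp24 did not pass without Control 45 (adjusted p = 0.0577). Mmp10, Mmp12 and Mmp13 had at most 3, 12 and 13 counts in any library and were not tested.

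Of 18 other ADAMTS genes, 10 were tested, and 4 rose and 1 fell relative to the typical gene (all 10 were higher on library totals), against 21.3% of all genes each way, with a median of 0.55. Adamts4, another protease of aggrecan and versican, rose from 0.258 to 2.16 CPM, a log2 fold change of 3.02 ± 0.58 (adjusted p = 0.00186), and 4.92 without Control 45. Adamts15 rose by 1.48 ± 0.23, Adamts7 by 1.57 ± 0.45 and Adamts9 by 0.94 ± 0.24 on the log2 scale. Adamts9 and Adamts15 are, like Adamts1 and Adamts4, known to cleave proteoglycans.

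Among 8 tested ADAM proteases, which release proteins from the cell surface, 5 rose and 1 fell relative to the typical gene, against 21.3% of all genes each way, with a median of 1.17. Adam17, which releases tumour necrosis factor, rose from 6.46 to 20.9 CPM (log2 1.69 ± 0.24, adjusted p = 0.000331). Adam8, a leukocyte member, rose by 3.04 ± 0.52 (4.25 without Control 45) and Adam9 by 1.38 ± 0.15 on the log2 scale. Adam33 was lower by -3.04 ± 0.61 (adjusted p = 0.00241), and on library totals it was lower by -0.92, which did not pass (adjusted p = 0.151).

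Of 21 tested genes that activate, bind or restrain these proteases, 12 rose and 3 fell relative to the typical gene, against 21.3% of all genes each way, with a median of 0.98. Sdc1, a cell-surface proteoglycan that metalloproteinases shed, rose by 2.56 ± 0.27, Cd44, a hyaluronan receptor that can hold Mmp9 at the cell surface, by 2.38 ± 0.37 (3.04 without Control 45), and the integrin subunit Itgb3 by 2.16 ± 0.37 on the log2 scale.

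Of 27 matrix genes that serve as substrates, all tested, 10 rose and 2 fell relative to the typical gene, against 21.3% of all genes each way, with a median of 0.51. Vcan, the proteoglycan versican, rose from 2.63 to 16.4 CPM (log2 2.62 ± 0.39, adjusted p = 0.000379), and 3.61 without Control 45. Col4a2 of the basement membrane rose by 1.32 ± 0.23, the fibrillar collagen Col3a1 by 1.47 ± 0.29 and periostin (Postn) by 2.23 ± 0.39 on the log2 scale. No gene of these lists passed the test between QYD and Model. On library totals all 27 matrix genes, 19 of the 21 activators and inhibitors, 7 of the 8 ADAM genes and all 10 ADAMTS genes were higher in Model, at or near the 94% of all genes.

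Finally, the genes whose levels over the 9 libraries were most like each of the 10 were found by the mean absolute difference of centred log2 CPM, over 11213 genes. All 3 nearest genes of Mmp8 were transcripts known from neutrophils: Retnlg at a mean difference of 0.18, S100a9 at 0.24 and S100a8 at 0.25, against a median of 1.66 over all genes; all 3 are also in the neutrophil marker list. The nearest of Timp1 were Saa3, an acute-phase protein (0.21), Nos2, the inducible nitric oxide synthase (0.25), and Pira2 (0.26), against a median of 1.74. Mmp9 was nearest to Car13 (0.17), Vcan (0.20) and Procr (0.22). Mmp3 was nearest to Fxyd5, Stk10 and Clu, and Mmp19 to Praf2, Ttc39c and Stk10. Adamts1 was nearest to Col4a2 at 0.097, then Tgm2 and Sema4c, and Mmp14 was nearest to Dnmt1, Col5a2 and Tgm2. Timp2 was nearest to Acsl1, Igfbp6 and Gucy1a1, Timp3 to Iars, Rrp12 and Tars, and Mmp2 to Tns3, Slc4a2 and Nfic. These are descriptions over libraries that share composition and include Control 45, with no test.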

How the data were processed

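Polyadenylated RNA of whole pancreas was sequenced, per the labels' protocols. The authors deposited 1 table with estimated counts, FPKM and TPM per gene and library. HISAT2 2.0.4, Bowtie2 2.2.5 and RSEM 1.2.12 are named in the submitters' processing notes, with GRCm38.p6 as the build, and no source used here states the use of strand. Estimated counts (93.5% of them whole in the deposited table) were rounded and tested in R 4.3.3 with edgeR 4.0.16 (TMM, filterByExpr, quasi-likelihood fit over 9 libraries with group as the only term). Benjamini-Hochberg adjustment ran over all 12828 tested genes, with a threshold of 0.05. The common biological coefficient of variation was 0.175. FPKM, as deposited by the authors, served to order genes and, with limma 3.58.1, as an alternative; the deposited TPM were not used in any result. DESeq2 1.42.0 was another alternative. No pair of libraries of a group agreed within sampling noise. The script was tested on simulated counts.

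The genes, lists and tests were chosen with earlier results of these data known. Named were all 10 genes, up to 4 genes of each list with the smallest p in Model versus Control at 1 CPM or more in some group, and the 3 genes most like each of the 10. Genes named outside this rule, for low counts, overlap or markers, were chosen after their values were seen. One gene that this rule names is not reported here.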

Additional observations from a re-analysis of the deposited data

How the results depend on the processing

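No paired analysis was possible because the groups share no replicate numbers. The number of genes lower in Model and in QYD than in Control was 2 by edgeR with TMM, and 0 with library size alone, with log2(FPKM + 1) and with log2(FPKM + 0.1). Of all genes, 21.3% were lower in Model and 20.3% in QYD with TMM, and 0.943 to 0.992% under the other 3 settings. Under these 3 settings, in that order, Mmp2 was 2.00, 1.25 and 1.89, Timp2 0.78, 0.64 and 0.74 and Timp3 1.38, 1.13 and 1.35 in Model versus Control. In QYD versus Control, Mmp2 was 1.88, 1.10 and 1.68, Timp2 0.68, 0.53 and 0.61 and Timp3 1.03, 0.83 and 1.02. All 3 settings leave out the correction for composition. Library size alone differs from the main setting in this only. The 2 FPKM settings also differ in the model, the unit, the filter and the constant added. The part of each of these in the values was not tested. In QYD versus Model, Mmp19 was 0.0040 and Timp2 0.0031 with a filter of 5 CPM, and Mmp19 was 0.013 with limma-voom, all within their error of 0.

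Leaving out 1 library at a time, 9 genes were called in Model versus Control each time, against 35.2 to 40.6% of all genes. In QYD versus Control 8 or 9 were called, against 32.6 to 39.5% of all genes. Mmp2 ran from -0.24 to 0.017 in Model versus Control. In QYD versus Model, Mmp14 ran from -0.26 to 0.092, Mmp19 from -0.14 to 0.15, Mmp2 from -0.39 to 0.14, Mmp9 from -0.0098 to 0.48, Timp1 from -0.21 to 0.033 and Timp2 from -0.24 to 0.22. The log2 ratio Timp1 to Mmp8 ran from -0.55 to 0.18 in QYD versus Control, and Timp2 to Mmp14 from -0.031 to 0.22 and Timp2 to Mmp2 from -0.078 to 0.27 in QYD versus Model. Adamts1 in QYD versus Control (0.70) was 0.50 with limma-voom (adjusted p = 0.257), 0.69 with only the 2 groups (adjusted p = 0.0543) and 0.52 to 0.87 with 1 library left out; the cause was not tested. DESeq2 gave Timp1 no adjusted p in either comparison with Control. Low counts limit the Control values of Mmp8, Mmp9, Mmp3, Mmp19 and Timp1.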
